A study of Mus musculus with 6 samples.

Results

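Cytosolic ribosomal protein genes were examined in the retina of wild-type C57BL/6 mice (C57BL/6J in the study's methods) at postnatal week 5 after NMDA injury, with or without stem cell factor (SCF). A gene was taken as a member when its symbol followed the standard pattern for large (Rpl, Rplp) or small (Rps) subunit proteins. Of 81 such symbols, 79 had at least 1 transcript listed in every library, and the other 2, Rpl3l and Rpl7a, were listed in some libraries only and were left out. The 79 members comprised 46 large subunit and 33 small subunit genes, among 25202 genes above 0 in at least 1 library. The choice of members used symbols and not expression values.

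In the study, NMDA, a glutamate receptor agonist that kills retinal ganglion cells by excitotoxicity, was injected into the eye of every animal. In the NMDA + SCF group (n = 3 libraries), recombinant SCF, the ligand of the receptor c-kit, was injected into the vitreous 2 days later. The NMDA + PBS group (n = 3 libraries) is labelled only as NMDA exposed, and the study's text gives PBS as its injection. The study's text gives retinal cells 1 week after SCF as the source, whereas the labels describe flash-frozen retinas. The number of mice behind each library is not given in the sources used here, so p-values measure the spread between these libraries, which may be technical. No uninjured group was analysed here, and in whole retina fewer cells of a type and less RNA per cell cannot be told apart.

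Ribosomes translate every cellular mRNA, and each is built from a small subunit that reads the mRNA and a large subunit that joins amino acids. Their proteins are made in matched amounts in growing and resting cells alike. Most of their mRNAs begin with a run of pyrimidines, the 5′ terminal oligopyrimidine motif, through which mTOR signalling adjusts their translation. In retina, with its high demand for photoreceptor membrane and phototransduction proteins, ribosomal protein mRNAs are expressed in all cell types.

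The start sites of the members described most closely are shown so that any pyrimidine run near the start can be read beside the values. Each line gives 30 bases of the coding strand in RefSeq on GRCm38.p6, 10 before the annotated start and 20 from it onward. Capitals mark an unbroken run of at least 6 C or T bases that lies within 5 bases of the start, as far as it falls inside the window.
Rps3a1, chr3:86142649-86142678, minus strand: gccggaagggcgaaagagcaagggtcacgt
Rpl4, chr9:64173377-64173406, plus strand: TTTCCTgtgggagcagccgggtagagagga
Rpl39, chrX:37085203-37085232, minus strand: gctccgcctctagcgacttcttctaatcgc
Rpl10a, chr17:28328461-28328490, plus strand: gCCCCCCCagcggccgcaaactgcagcgcc
Rplp0, chr5:115559457-115559486, plus strand: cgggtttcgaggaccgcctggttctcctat
Rpl6, chr5:121204491-121204520, plus strand: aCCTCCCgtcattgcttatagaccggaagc
Rpl15, chr14:18270967-18270996, minus strand: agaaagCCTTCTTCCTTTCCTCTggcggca
Rpl35, chr2:39005112-39005141, minus strand: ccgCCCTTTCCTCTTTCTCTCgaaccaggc
Rps10, chr17:27635225-27635254, minus strand: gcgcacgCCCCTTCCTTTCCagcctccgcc
Rps2, chr17:24720053-24720082, plus strand: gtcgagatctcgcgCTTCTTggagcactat
Rpl28, chr7:4792955-4792984, plus strand: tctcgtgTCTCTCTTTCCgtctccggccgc

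Of these 11 genes, 8 carried such a run. It crossed the annotated start in Rpl15, Rpl35, Rps10 and Rpl28. In Rpl4, Rpl10a and Rpl6 it ended before the start, and in Rps2 it began after it. The longest run was that of Rpl35, at 18 bases, followed by that of Rpl15 at 17 bases. Across the 67 RefSeq start sites found for 56 members, 46.3% had a run of at least 6 bases, against 20.2% of all 32851 start sites. These shares count runs on either side of the annotated start, and not only mRNAs that begin with one. For a run of at least 10 bases the shares were 25.4% and 4.96%. Within the region from 250 bases before to 50 bases after the start, read on both strands, the hexamer CGGAAG occurred at 59.7% of member start sites and at 16.9% of all start sites. The octamer TCTCGCGA occurred at 16.4% against 0.995%, and AAGATGGCG at 7.46% against 1.40%. No searched motif contains another. TATAAA, the core of the TATA box, occurred at 11.9% of member start sites and at 13.6% of all start sites. These matches describe the letters at the annotated starts and were not related to the change with SCF.

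The level of a gene is given as FPKM, which scales the fragments of a transcript by its length and by the depth of the library, summed over its transcripts that were listed in all 6 libraries. The files hold 2 lists of transcripts, here list A and list B. NMDA + PBS 1 and all 3 NMDA + SCF libraries were quantified on list A, and NMDA + PBS 2 and NMDA + PBS 3 on list B, so within the controls the list and the library cannot be told apart. The lists shared 46933 Ensembl transcripts, with 7529 found only in list A and 8966 only in list B. Clean reads ranged from 44925938 to 48783182 per library, and the fragments that the FPKM values account for ranged from 3404332 to 4440575. Mitochondrial genes took 16.9 to 23.4% of the shared FPKM in the NMDA + PBS libraries and 11.9 to 12.3% in the NMDA + SCF libraries. Summed lens marker FPKM ran from 23.5 to 297.0 in NMDA + PBS and from 445.1 to 9112 in NMDA + SCF, with 9 of 10 markers measured and Cryaa at 0 in 2 control libraries. The part of the lens markers in the results that follow was not tested, and values fitted with the list as a term and without mitochondrial genes are given beside the members' medians.

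What a ribosomal protein gene's level stands for differed among the members. Their 205 shared transcripts comprised 101 with a retained intron, 73 coding, 26 processed noncoding, 4 processed pseudogenes and 1 targeted by nonsense-mediated decay. Only 45 members were represented by a transcript that carries the full consensus coding sequence (CCDS), 9 by another coding transcript, 21 by noncoding forms alone and 4 by a processed pseudogene. Among annotated member transcripts, 52 of 132 with a consensus coding sequence (39.4%) and 101 of 168 with a retained intron (60.1%) were listed for all libraries. The shares were 33.5% and 55.1% over all genes, so the thin coverage of coding forms was not limited to ribosomal proteins. Of the 45 full coding forms, 7 averaged at least 100 FPKM and 10 averaged under 1 FPKM. The full coding form of Rps27a, which makes a ubiquitin fusion protein of the small subunit, was listed at 0.32 FPKM in NMDA + PBS 2 and at 0 in the other 5 libraries. A low level here is therefore a level of the listed transcripts and not of the gene's whole output. Processed copies of ribosomal protein genes are common in the genome, and how the authors' counting divided reads among such copies is not given in the sources used here.

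A few genes carried most of the signal. The 8 highest members held 91.3, 82.5 and 71.2% of the members' FPKM in NMDA + PBS 1, 2 and 3 and 88.6, 88.1 and 88.7% in NMDA + SCF 1, 2 and 3. By mean FPKM over the 6 libraries, 8 members reached 100, 30 lay between 10 and 100, 36 between 1 and 10, and 5 below 1. The recovered fragment numbers were at least 10 in every library for 52 members and at most 3 in every library for 5 members. Rplp1, which encodes an acidic protein of the P stalk that recruits elongation factors (chr9:61913284-61914542, GRCm38), was the highest member. It was among the 24 highest genes of every library and was represented by a single coding transcript. Its FPKM was 6339, 2571 and 907 in NMDA + PBS 1, 2 and 3 and 4945, 4348 and 4987 in NMDA + SCF 1, 2 and 3. The SCF libraries lay close together inside the wide range of the controls. The fitted log2 fold change on the log2(FPKM + 1) scale was 0.95 (SE 0.66, limma adjusted p = 0.660).

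Rps3a1, a small subunit protein of the platform near the mRNA exit (chr3:86137940-86142702), was second. Its FPKM was 2063, 1035 and 749 in the controls and 1529, 1589 and 1638 with SCF, so the groups overlapped through NMDA + PBS 1 alone. The fitted log2 fold change was 0.44 (SE 0.39, limma adjusted p = 0.696). Rpl4, whose protein reaches into the tunnel through which the new peptide leaves (chr9:64173375-64178666), had 450, 296 and 330 FPKM in the controls. With SCF it had 303, 277 and 441 FPKM, a range that overlapped that of the controls and reached slightly below it. Rpl10a, a protein of the mobile L1 stalk beside the tRNA exit site (chr17:28328471-28331033), had 207.9, 123 and 108 FPKM in the controls and 187, 207.9 and 204 with SCF. NMDA + PBS 1 again matched the SCF libraries while NMDA + PBS 2 and 3 were lower.

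**Figure D1:**
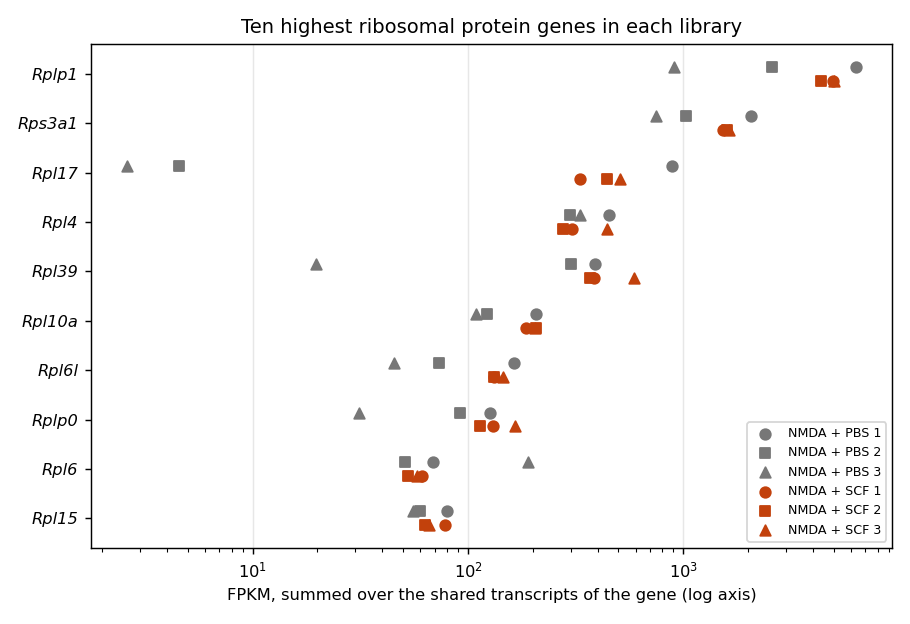
FPKM on a log axis for the 10 ribosomal protein genes of highest mean, with 1 point per library (grey, NMDA + PBS, and orange, NMDA + SCF, with circle, square and triangle for replicates 1, 2 and 3). NMDA + PBS 3 is the lowest point for Rplp1, Rps3a1, Rpl17, Rpl39, Rpl10a, Rpl6l, Rplp0 and Rpl15 and the highest for Rpl6, while the 3 SCF points of Rplp1 and Rps3a1 lie close together.

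The other P stalk genes were read beside Rplp1. Rplp0, the stalk's anchor on the large subunit (chr5:115559467-115563727), had 126, 92.0 and 31.3 FPKM in the controls and 130, 114 and 165 with SCF. Rplp2, the partner of Rplp1 in the stalk dimers (chr7:141447370-141451585), had 27.4, 32.6 and 21.2 FPKM in the controls and 26.4, 34.1 and 29.9 with SCF. All 3 stalk genes were lowest in NMDA + PBS 3, and none passed the test (limma adjusted p = 0.560 for Rplp0 and 0.788 for Rplp2). Although the stalk holds equal numbers of both acidic proteins, the listed Rplp2 transcripts stood far below Rplp1 in FPKM. The full coding form of Rplp2 was listed at 2.12 FPKM or less in every library.

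Rpl17 and Rpl39, both proteins that line the peptide exit tunnel, had the largest fitted changes of the 10 highest members. Rpl17 had 884 FPKM in NMDA + PBS 1, 4.54 in NMDA + PBS 2 and 2.62 in NMDA + PBS 3, against 330, 440 and 508 with SCF. The low libraries were the pair quantified on list B, although the same single transcript was listed in all 6. The fitted log2 fold change of 4.01 (SE 1.90, limma adjusted p = 0.545) therefore joined a value of -1.07 against NMDA + PBS 1 alone with 6.55 against NMDA + PBS 2 and 3. Rpl39 (chrX:37082520-37085402) had 391, 301 and 19.6 FPKM in the controls and 385, 369 and 589 with SCF. Its low value was confined among the 6 libraries to NMDA + PBS 3, which shares list B with NMDA + PBS 2. Its fitted log2 fold change was 1.70 (SE 1.03, limma adjusted p = 0.605).

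Summed over the 79 members, ribosomal protein transcripts made up 2.83, 1.60 and 0.977% of the shared FPKM in NMDA + PBS 1, 2 and 3 and 2.45, 2.34 and 2.53% in NMDA + SCF 1, 2 and 3. The means were 1.80 ± 0.945% and 2.44 ± 0.0935% (SD, n = 3 libraries each), and the SCF libraries lay within the control range. No test was run on these sums, because an exact permutation of 3 against 3 libraries cannot give a two-sided p below 0.1. Large subunit genes took 2.25, 1.20 and 0.653% in the controls and 1.93, 1.80 and 2.01% with SCF. Small subunit genes took 0.584, 0.397 and 0.324% in the controls and 0.517, 0.538 and 0.520% with SCF. Both subunits thus followed the same order of libraries within the controls.

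The ratio of large to small subunit FPKM was 3.85, 3.02 and 2.01 in the controls and 3.73, 3.35 and 3.86 with SCF, or 2.96 ± 0.918 and 3.65 ± 0.266 (SD, n = 3 each). Without Rplp1 it was 1.21, 1.12 and 1.13 in the controls and 1.12, 1.12 and 1.38 with SCF. Without both Rplp1 and Rps3a1 it was 8.58, 4.74 and 4.22 in the controls and 5.76, 6.03 and 7.44 with SCF. The ratio and its spread thus depended on the most abundant gene of each subunit. Outside the 8 highest members, the other 71 together took 0.245, 0.280 and 0.281% in the controls and 0.280, 0.279 and 0.286% with SCF. Their sum hardly moved between libraries while that of the 8 highest ran from 0.696 to 2.59%. The coding transcripts within that sum did move, at 0.103, 0.0946 and 0.157% in the controls and 0.102, 0.0960 and 0.105% with SCF.

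**Figure D2:**
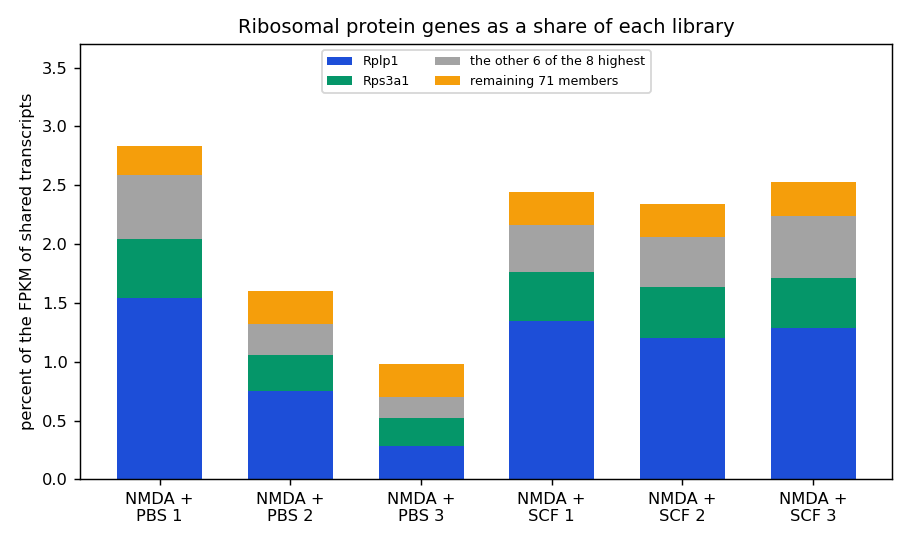
Percent of the FPKM of shared transcripts in each library, stacked for Rplp1, Rps3a1, the other 6 of the 8 highest members and the remaining 71 members. The total falls from 2.83% in NMDA + PBS 1 to 0.977% in NMDA + PBS 3 and lies between 2.34 and 2.53% in the SCF libraries, whereas the top segment stays between 0.245 and 0.286%.

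The comparison of NMDA + SCF with NMDA + PBS was made gene by gene. No member moved 2-fold or more at an adjusted p of 0.001 or below, or passed an adjusted p of 0.05 without the fold criterion (limma). The same held for all 25202 genes (0.00% called at either threshold). At an unadjusted p of at most 0.05, 5 members (6.33%) were higher with SCF and 0 were lower, against 4.33% higher and 4.90% lower over all genes, or 9.22% in either direction. In 9 members (11.4%) every SCF library was above every control and in 0 members every one was below, against 7.63% and 6.45% of all genes. Among genes with a mean of at least 1 FPKM, the share higher at p of at most 0.05 was 6.58% and the share above every control 11.8%, close to those of the members. The fitted change was above 0 for 61 of 79 members (77.2%), against 49.1% of all genes and 55.8% of genes averaging at least 1 FPKM. The median log2 fold change was 0.28 over the members, 0.28 over large subunit genes and 0.37 over small subunit genes, beside -0.01 over all genes and 0.07 over genes averaging at least 1 FPKM. With the transcript list as a term, the change is measured against NMDA + PBS 1 alone, the only control on list A. The large and small subunit medians were then 0.03 and 0.10, beside 0.06 over all genes. Without mitochondrial genes, and with no list term, they were 0.10 and 0.18, beside -0.09 over all genes. On protein-coding transcripts alone they were 0.30 and 0.08, beside 0.03 over all genes. Without NMDA + PBS 3 the median over all genes was 7.0e-06, and the members' median was 0.05. Against NMDA + PBS 1 alone, the control that shares list A, it was 0.09, with 44 members above 0. This is the same contrast that the list term gives, so both rest on that control library alone.

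**Figure D3:**
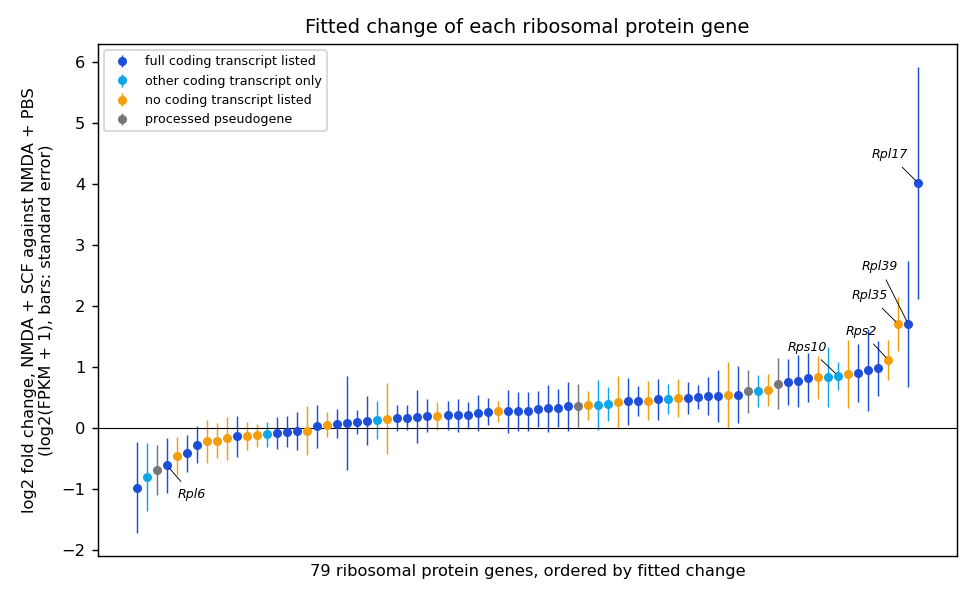
Fitted log2 fold change with its standard error for the 79 ribosomal protein genes, ordered by size and coloured by the kind of transcript behind each value. Values above 0 (61 of 79) are found in every colour, Rpl17 stands apart at 4.01 with a standard error of 1.90, and Rpl6 lies among the lower values at -0.61.

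The 5 members with an unadjusted p of at most 0.05 were low or middle in level, and each had an adjusted p of 0.536. Rpl35, a protein at the mouth of the exit tunnel, had 0.99, 3.40 and 1.52 FPKM in the controls and 7.89, 13.6 and 4.88 with SCF. These values came from a single noncoding transcript (chr2:39001580-39005624) and from 1 to 14 fragments, and all SCF libraries lay above all controls. The log2 fold change was 1.70 (SE 0.44, limma unadjusted p = 0.00575). Rps10, a protein of the small subunit head, had 21.7, 22.6 and 13.3 FPKM in the controls and 35.5, 33.1 and 35.5 with SCF, again without overlap. Its log2 fold change was 0.86 (SE 0.23, limma unadjusted p = 0.00724), over 1 retained-intron and 2 partial coding transcripts (chr17:27630418-27636669).

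Rps2, which stands at the mRNA entry of the small subunit, had 3.32, 5.61 and 2.57 FPKM in the controls and 10.3, 11.2 and 6.51 with SCF. All its shared transcripts retained an intron, and at 5 to 17 fragments per library the log2 fold change was 1.12 (SE 0.33, limma unadjusted p = 0.0105). Rpl28, a large subunit surface protein (chr7:4792874-4795066), had 28.3, 29.4 and 22.4 FPKM in the controls and 31.8, 43.0 and 41.3 with SCF. A full coding form was listed for it, and its log2 fold change was 0.52 (SE 0.20, limma unadjusted p = 0.0349).

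The other members whose groups did not overlap were Rpl14, Rpl41, Rps3a3, Rps9 and Rps28, named after their values were seen. Their fitted log2 fold changes ran from 0.60 for Rps3a3 to 0.84 for Rpl41, and their means over the 6 libraries were below 10 FPKM. Rps3a3 is annotated as a processed pseudogene. At the lower end of the fitted changes, Rps15a, a small subunit core protein, had 3.79, 2.55 and 0.41 FPKM in the controls and 1.39, 0 and 0.92 with SCF. Rps25, a protein of the small subunit head, had 5.95, 7.67 and 6.23 FPKM in the controls and 2.88, 6.02 and 5.84 with SCF. Both rested on few fragments, and neither passed the test (limma adjusted p = 0.660 and 0.688).

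The lowest library was NMDA + PBS 3 for 46 of the 79 members (58.2%), against 29.2% of the genes averaging at least 1 FPKM. The 4 measured of 7 microglia markers were also lowest or at 0 in that library, with a summed FPKM of 140, 290 and 35.4 in the controls and 219 to 301 with SCF. The 5 measured of 6 pigment epithelium markers, mostly Ttr, summed to 797, 371 and 193 FPKM in the controls and 710 to 937 with SCF. Only 2 of these 5 were lowest in NMDA + PBS 3. Their median was 1.26, 2.63 and 2.02 FPKM in the controls and 1.12, 1.29 and 3.46 with SCF, so the list as a whole did not follow the sum. The part of these cell types in the members' values was not tested. Of the 45 members with a full coding form, 68.9% were lowest in NMDA + PBS 3, and of the 21 with noncoding forms alone 42.9%. Relative spread within groups followed: the median coefficient of variation of the 74 members averaging at least 1 FPKM was 41.5% in NMDA + PBS and 18.3% in NMDA + SCF. Over all genes averaging at least 1 FPKM it was 36.8% and 23.7%. The control spread was the wider for 59 of 74 members, and for 66.7% of all genes. Against the list B controls alone, 29 members had every SCF library above both and 3 had every one below, where 14.8% and 17.3% of all genes did. Against NMDA + PBS 1 alone, 23 members had every SCF library above it and 24 had every one below, where 23.8% and 23.6% of all genes did. Leaving out NMDA + PBS 1 and refitting gave 20 members at an unadjusted p of at most 0.05, 19 of them higher with SCF, where 17.5% of all genes passed. At an adjusted p of 0.05, Rpl10a and Rpl17 then passed (limma adjusted p = 0.0460 and 0.00110), where 3.37% of all genes did. That contrast sets 3 list A libraries against 2 list B libraries, so treatment and list cannot be told apart in it.

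Reading the full coding form and the retained-intron forms of a gene separately showed that NMDA + PBS 3 was not low throughout. Both kinds were listed for 33 members, with the coding form higher in 14 and the retained-intron forms higher in 19. Rpl6, a large subunit surface protein (chr5:121204481-121209241), had 69.1, 50.7 and 190.7 FPKM in the controls and 61.2, 52.6 and 57.9 with SCF. Its coding form had 23.6, 13.7 and 173.8 FPKM in the controls and 7.81, 9.73 and 12.7 with SCF. In NMDA + PBS 3 this form made up 91.1% of the gene's FPKM, whereas in the other libraries it made up 12.8 to 34.1%. Its retained-intron forms went the other way, with 45.5, 37.1 and 16.9 FPKM in the controls and 53.3, 42.8 and 45.2 with SCF.

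Rpl5, which binds the 5S rRNA and was named after its values were seen (chr5:107900502-107909005), had a coding form at 0.29, 0.61 and 29.5 FPKM in the controls and 0.43, 0.70 and 0.42 with SCF. Its retained-intron forms had 31.2, 51.9 and 44.7 FPKM in the controls and 34.2, 42.2 and 42.5 with SCF. For Rpl39 the coding form carried the low value, at 383, 285 and 14.7 FPKM in the controls and 374, 355 and 577 with SCF.

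Over the 33 members with both kinds, the coding form was lowest in NMDA + PBS 3 for 10 and highest there for 7. The retained-intron forms were lowest in that library for 15 and highest for 1. The median log2 fold change was 0.11 for the coding forms, with 20 above 0, and 0.21 for the retained-intron forms, with 22 above 0. Over all members the ratio of full coding to retained-intron FPKM was 21.5, 8.41 and 7.43 in the controls and 15.1, 13.05 and 14.6 with SCF. Rplp1, Rps3a1 and Rpl17, each with 1 shared transcript, a full coding form, entered only the numerator of this ratio. Outside the 8 highest members, coding transcripts summed to 422, 323 and 496 FPKM in the controls and 374, 348 and 405 with SCF, highest in NMDA + PBS 3. The retained-intron forms alone took 0.122, 0.159 and 0.109% of the shared FPKM in the controls and 0.145, 0.159 and 0.155% with SCF. The libraries also differed in transcript list and in mitochondrial share, and the part of either in the values by form was not tested.

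**Figure D4:**
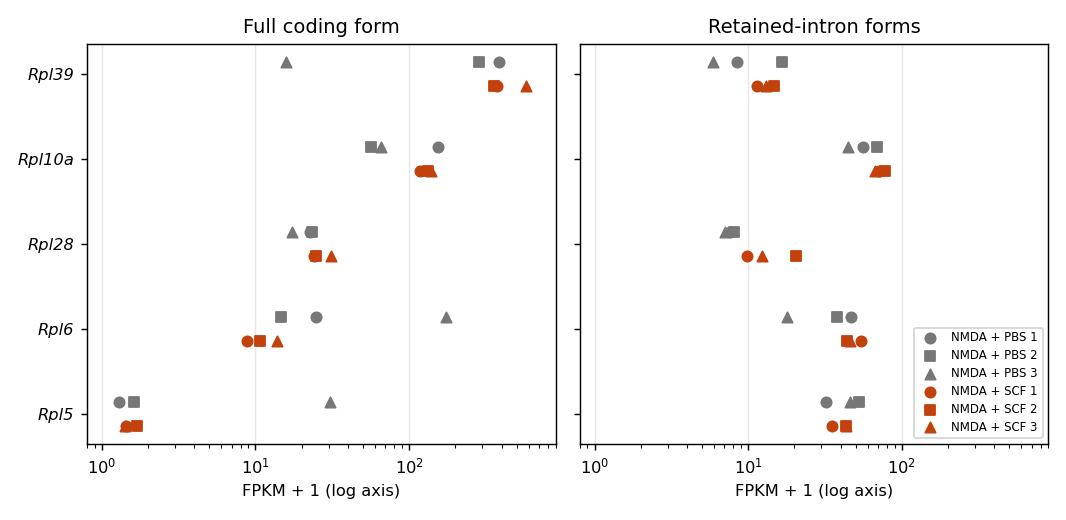
FPKM + 1 on a log axis of the full coding form (left) and of the retained-intron forms (right) for Rpl39, Rpl10a, Rpl28, Rpl6 and Rpl5, with 1 point per library coloured and shaped by group and replicate. On the left NMDA + PBS 3 (grey triangle) is lowest for Rpl39 and Rpl28 and highest for Rpl6 and Rpl5, and on the right it is highest for none of the 5 genes.

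The 21 members with noncoding forms alone included Rpl3, Rpl9, Rpl12, Rpl13, Rpl19, Rpl22, Rpl22l1, Rpl24, Rpl26, Rpl35, Rpl35a, Rpl36a, Rps2, Rps4l, Rps4x, Rps12, Rps18, Rps21 and Rps27l. The lowest mean among them was 0.35 FPKM for Rpl9. Their fitted log2 fold changes ran from -0.45 for Rps12 to 1.70 for Rpl35, with a median of 0.27 and 14 above 0. Rpl3, a protein of the peptidyl transferase centre, had 9.14, 11.0 and 10.1 FPKM in the controls and 9.06, 9.39 and 9.03 with SCF. Rps18, a small subunit head protein often used as a reference gene, had 33.8, 39.7 and 29.0 FPKM in the controls and 40.7, 29.1 and 37.4 with SCF, and its fitted log2 fold change of 0.06 turned below 0 under equal-sum, upper quartile and median-of-ratios scaling. Rpl24, a protein at the interface of the subunits, had 14.8, 19.8 and 8.42 FPKM in the controls and 16.9, 29.3 and 31.4 with SCF (limma unadjusted p = 0.0507).

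Paralogs and processed copies were read beside their partners. Rpl22l1, the paralog of the RNA-binding large subunit protein Rpl22, had 1.23, 2.37 and 3.07 FPKM in the controls and 1.38, 1.66 and 2.42 with SCF. Rpl22 itself had 8.12, 15.4 and 9.27 FPKM in the controls and 18.2, 10.7 and 18.3 with SCF. Both genes were represented by noncoding forms only, and both pairs of groups overlapped. Rps27l and Rps27, paralogs of the small subunit, each rested on 1 to 3 fragments per library, at 0.44 to 1.74 and 0.56 to 1.495 FPKM. Rps4x, a small subunit protein encoded on the X chromosome, had 3.37, 4.81 and 0.29 FPKM in the controls and 5.58, 4.76 and 4.43 with SCF, while its copy Rps4l stayed at 0.93 FPKM or less. The limma adjusted p of these 6 genes ran from 0.619 to 0.885.

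Rpl6l, annotated as a processed pseudogene of Rpl6 (chr10:111125851-111126721), was the seventh highest member. It had 163, 73.3 and 45.5 FPKM in the controls and 133, 132 and 145 with SCF. It therefore was lowest in NMDA + PBS 3, the library in which the coding form of Rpl6 was highest. In NMDA + PBS 2 it also lay below the SCF libraries, where the coding form of Rpl6 was at a similar level. Whether reads were divided between the copy and Rpl6 was not tested. Rpl32l, a processed copy of the large subunit gene Rpl32 (chr10:20208490-20208888), had 11.0, 4.41 and 3.95 FPKM in the controls and 2.19, 3.60 and 4.35 with SCF. Rpl32 had 8.03, 8.05 and 6.65 FPKM in the controls and 10.6, 7.30 and 3.91 with SCF. Rps3a2, a processed copy of Rps3a1, had 11.5, 4.13 and 7.39 FPKM in the controls and 9.95, 7.62 and 11.3 with SCF. None of the 4 processed copies or of their partners passed the test (limma adjusted p from 0.586 to 0.899).

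Other genes of the translation machinery were read from lists of known function, and none of them reached an adjusted p of 0.05. Their levels are likewise levels of the listed transcripts, whose kinds and fragment numbers are not given here. The counts given for these lists are at a limma unadjusted p of at most 0.05. At that threshold 4.33% of all genes were higher and 4.90% lower. Among genes averaging at least 1 FPKM, 6.58% were higher. Of 5 ribosomal proteins outside the naming pattern, 2 were higher at an unadjusted p of at most 0.05 and 0 lower. Fau, a fusion of a ubiquitin-like protein with a small subunit protein, had 1.996, 0.34 and 0.31 FPKM in the controls and 2.78, 2.34 and 3.93 with SCF (limma unadjusted p = 0.0253). Its groups did not overlap. Of 5 elongation factor genes, 0 passed in either direction, with fitted log2 fold changes from -0.31 for Eef1g to 0.41 for Eef1d, both subunits of the exchange factor complex. Eef2, which moves the ribosome along the mRNA, had 1131, 907 and 1239 FPKM in the controls and 1132, 965 and 1059 with SCF, without the low value of NMDA + PBS 3 seen for Rplp1.

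Of 12 further genes with a terminal oligopyrimidine mRNA, 1 was higher and 0 lower at an unadjusted p of at most 0.05. This was Tpt1, the translationally controlled tumour protein, with 9.51, 5.30 and 4.26 FPKM in the controls and 13.4, 13.4 and 9.14 with SCF. The lowest fitted log2 fold change of that list was -0.20 for Npm1, a nucleolar chaperone. Of 22 initiation factors, 2 were higher and 2 lower. Eif2s1, the alpha subunit of the factor that brings the initiator tRNA, had 11.4, 38.9 and 33.8 FPKM in the controls and 6.60, 9.74 and 9.54 with SCF (limma unadjusted p = 0.0134). Eif4e, the cap-binding protein, was among the higher ones and was listed at 34.3, 0.25 and 0 FPKM in the controls and 29.4, 33.9 and 34.5 with SCF, so its low libraries were again the list B pair. Of 32 ribosome biogenesis factors, 4 were higher and 2 lower, with Bop1, which processes large subunit rRNA, at 22.2, 14.3 and 8.41 FPKM in the controls and 27.7, 34.6 and 42.8 with SCF. Efl1, which helps free the anti-association factor from new large subunits, had the lowest fitted log2 fold change of that list, -1.08. Of 11 genes of the S6 kinase and mTOR branch, 1 was higher and 0 lower, namely Eif4ebp2, a repressor of cap-dependent translation, at 68.9, 57.5 and 55.2 FPKM in the controls and 80.7, 80.8 and 85.5 with SCF. Fitted log2 fold changes in that list ran from -0.33 for Rptor, the mTOR complex scaffold, to 0.46 for Eif4ebp1. Of 71 mitochondrial ribosomal proteins, 6 (8.45%) were higher and 3 lower, beside 4.33% and 4.90% of all genes. Mrpl51, of smallest p in that list, had 3.26, 3.36 and 3.16 FPKM in the controls and 7.62, 7.36 and 7.37 with SCF (limma unadjusted p = 0.00235). The fitted log2 fold changes there ran from -1.57 for Mrps5 to 2.22 for Mrpl28, and both genes had NMDA + PBS 1 nearer to the SCF libraries than to NMDA + PBS 2 and 3. The medians of the fitted log2 fold change in these lists lay between -0.05 for elongation factors and 0.29 for the ribosomal proteins outside the pattern.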

How the data were processed

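Retinal mRNA was enriched with oligo (dT) beads and sequenced on an Illumina HiSeq instrument. The authors deposited FPKM values per transcript for each library and a table with counts of raw and clean reads. The aligner and counter are not given in the sources used here. The submitters' processing notes name the build mm9, but 98.2% of transcript positions were identical to those of GENCODE M21 on GRCm38, which was used for coordinates and transcript types. The start-site sequences are on GRCm38.p6.

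FPKM was summed per gene symbol over Ensembl transcripts listed in all 6 files. Values were tested with limma 3.58.1 (R 4.3.3) with a variance trend on log2(FPKM + 1), over all 25202 genes, with condition as the only term and Benjamini-Hochberg adjustment. A count test is not suited to FPKM, and voom on fragments recovered from FPKM and transcript length was an alternative. Of the FPKM values times length, 98.4 to 98.5% were whole multiples of 1 fragment, within 0.05 of a fragment. The study's thresholds for calls were used, a 2-fold change at an adjusted p of 0.001. The fit was tested on simulated data. The members, gene lists and tests were chosen with earlier results of these data known.

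Genes were named by a rule: the 10 members of highest mean, the 5 highest and 5 lowest fitted changes among members averaging at least 1 FPKM, the 5 smallest p, the P stalk, the paralogs with their partners and the members with no coding transcript listed. Alternatives were the scaling, the pseudocount, a filter on low values, voom, other transcript sets, the list or replicate number as a term, leaving out mitochondrial genes and leaving out each library. Values of some genes are not reported here, although counts and sums include them. The sequence tables held 56 of the 79 members.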

Additional observations from a re-analysis of the deposited data

How the results depend on the processing

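No member was called under any alternative. Over all genes, 55 were called without NMDA + PBS replicate 1 and 0 otherwise. At an unadjusted p of at most 0.05, 5 members and 2324 genes passed, 1090 higher and 1234 lower with SCF, and under upper quartile scaling the split was 643 higher and 1555 lower. With voom, 5 members and 2516 genes passed that threshold and 2 genes an adjusted p of 0.05. Leaving out 1 library at a time, the number of all genes at an unadjusted p of at most 0.05 ran from 1214 to 4404. Leave-one-out medians of the log2 fold change ran from 0.051 to 0.468 for all members, from 0.0345 to 0.400 for the large subunit and from 0.142 to 0.511 for the small subunit, with the lowest value of each without NMDA + PBS 3. With the transcript list as a term the large and small subunit medians were 0.0343 and 0.101, beside 0.0585 over all genes. On protein-coding transcripts alone the small subunit median was 0.0778, beside 0.0284 over all genes. Without mitochondrial genes the small subunit median was 0.178, beside -0.0884 over all genes.

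The share of the library taken by the members in NMDA + SCF was 2.31% on all listed transcripts, 3.01% on protein-coding transcripts and 2.78% without mitochondrial genes. In recovered fragments the shares were 0.652% in NMDA + PBS and 0.835% in NMDA + SCF, and the large to small ratio in NMDA + SCF was 2.53. Leaving out 1 library at a time, the share ran from 1.29 to 2.22% in NMDA + PBS and from 2.39 to 2.49% in NMDA + SCF, and the ratio from 2.52 to 3.43 and from 3.54 to 3.79.

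Of the 43 genes named by the rule, 10 changed sign under at least 1 alternative, none of them past the threshold. Rpl15 went to -0.0210 under upper quartile scaling and -0.110 without mitochondrial genes, and ran from -0.0022 (without NMDA + PBS 3) to 0.257 when 1 library was left out. Over the same omissions Rpl22l1 ran from -0.411 to 0.0223, which was without NMDA + PBS 3, and Rpl32 from -0.422 to 0.201, which was without NMDA + SCF 3. Rpl4 ran from -0.286 to 0.0902, above 0 without NMDA + PBS 1 and without NMDA + SCF 2. Rps27 ran from -0.0706, without NMDA + PBS 2, to 0.270, and was -0.187 on all listed transcripts. Rplp2 went to -0.0468 on protein-coding transcripts and -0.0456 without mitochondrial genes. Rpl12 ran from -0.0010, without NMDA + PBS 3, to 1.01. Rpl19 ran from -0.338 to 0.838, below 0 without NMDA + PBS 3 and without NMDA + PBS 1, and was -0.154 on all listed transcripts and -0.0017 without mitochondrial genes. Rps21 ran from -0.287 to 0.295, above 0 without NMDA + PBS 2 and without NMDA + SCF 3. Rps18 ran from -0.0500 to 0.197, below 0 without NMDA + PBS 3 and without NMDA + SCF 1, and was -0.0125 on equal sums, -0.0629 under upper quartile and -0.0164 under median-of-ratios scaling, -0.0769 with voom and -0.151 without mitochondrial genes. The cause was not tested.

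With the replicate number as a block, 0 members were called, the members' median stayed at 0.28, and 4 members and 1856 genes had an unadjusted p of at most 0.05. Deviations of same-numbered libraries from their group means correlated at -0.05, -0.05 and -0.08. With 3 libraries per group these deviations sum to 0 for each gene, so the check cannot decide whether the numbers pair the libraries. Depth limited the lower members, with 5 at 3 fragments or fewer in every library.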
